A study of Arabidopsis thaliana with 6 samples.

Results

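Transcript levels of 8 genes of systemic acquired immunity were followed in *Arabidopsis* plants of 3 genotypes. The 8 genes were chosen by locus, as rows of the tables of read counts, out of 32833 genes, with earlier results of these data known. They are FMO1 (AT1G19250), ALD1 (AT2G13810), SARD4 (AT5G52810) and UGT76B1 (AT3G11340) of the N-hydroxypipecolic acid (NHP) pathway, and AZI1 (AT4G12470), EARLI1 (AT4G12480), AZI3 (AT4G12490) and DIR1 (AT5G48485), which encode small lipid-transfer proteins. All 8 passed the filter on low counts.

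RNA came from untreated soil-grown plants of the Col-0 ecotype, 21 days of age and harvested without roots, and each genotype had 2 libraries. Col-0 was the wild type. LNJ-OX plants overexpressed LITTLE NINJA (LNJ), a short synthetic microProtein with the domain through which NINJA proteins bind JAZ repressors and with kinship to *AFP2*. The construct carried a FLAG tag and was driven by the double CaMV35S promoter, so that expression was not limited to a tissue. The labels do not say which transgenic line was sequenced. In the study's yeast assays, LNJ of *Brachypodium* bound NINJA but not JAZ. The jazD line is a decuple *jaz* mutant, which lacks many of the JAZ repressors of jasmonic acid (JA) signaling. The study's methods call its libraries biological replicates. The labels do not say how many plants were pooled in a library or whether libraries came from separate growths, so p-values measure the spread between these libraries.

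Systemic acquired resistance is the state in which an infection of a few leaves makes distant leaves more resistant. The plant makes pipecolic acid from lysine. The aminotransferase ALD1 removes the amino group, the reductase SARD4 completes pipecolic acid, and the monooxygenase FMO1 turns it into NHP, the mobile and resistance-inducing form. The glucosyltransferase UGT76B1 attaches glucose to NHP and to salicylic acid (SA) and so lowers the free amounts. AZI1, EARLI1, AZI3 and DIR1 belong to lipid-transfer protein families, and AZI1 and DIR1 are needed for signals such as azelaic acid and glycerol-3-phosphate to reach distant leaves. NHP and SA production share the transcription factors SARD1 and CBP60g.

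The stretches before the gene starts are shown for 5 members because transcripts of factors that bind such elements, SARD1 and CBP60g among them, were measured in the same libraries. Each is the 250 bases before the annotated start, 5′ to 3′ on the gene's strand, from the RefSeq assembly TAIR10.1. Capitals mark every match, on either strand, to the GAAATTT element (GAAATTT, known to be bound by SARD1 and CBP60g), the W-box core (TTGAC, bound by WRKY factors), the TGACG element, the G-box (CACGTG) or the CGCG box core.
FMO1, chr1:6653196-6653445, minus strand: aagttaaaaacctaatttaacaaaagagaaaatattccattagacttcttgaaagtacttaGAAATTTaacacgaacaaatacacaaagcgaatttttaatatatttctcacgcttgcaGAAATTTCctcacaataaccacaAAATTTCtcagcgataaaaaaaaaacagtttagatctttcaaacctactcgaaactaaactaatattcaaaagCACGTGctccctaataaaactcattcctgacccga
ALD1, chr2:5768167-5768416, plus strand: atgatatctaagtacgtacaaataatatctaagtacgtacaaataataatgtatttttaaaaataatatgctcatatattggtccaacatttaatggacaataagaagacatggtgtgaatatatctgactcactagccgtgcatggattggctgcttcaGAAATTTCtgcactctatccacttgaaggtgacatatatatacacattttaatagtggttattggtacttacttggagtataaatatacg
UGT76B1, chr3:3556304-3556553, plus strand: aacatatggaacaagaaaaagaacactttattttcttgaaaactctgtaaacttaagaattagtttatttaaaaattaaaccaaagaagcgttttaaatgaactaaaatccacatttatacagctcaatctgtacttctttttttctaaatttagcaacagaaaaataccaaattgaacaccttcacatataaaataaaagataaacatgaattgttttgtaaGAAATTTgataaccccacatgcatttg
AZI1, chr4:7401952-7402201, minus strand: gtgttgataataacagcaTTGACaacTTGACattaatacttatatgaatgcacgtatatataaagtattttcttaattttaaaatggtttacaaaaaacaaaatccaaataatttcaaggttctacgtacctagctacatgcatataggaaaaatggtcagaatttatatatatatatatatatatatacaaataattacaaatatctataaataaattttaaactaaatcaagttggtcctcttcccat
EARLI1, chr4:7406995-7407244, minus strand: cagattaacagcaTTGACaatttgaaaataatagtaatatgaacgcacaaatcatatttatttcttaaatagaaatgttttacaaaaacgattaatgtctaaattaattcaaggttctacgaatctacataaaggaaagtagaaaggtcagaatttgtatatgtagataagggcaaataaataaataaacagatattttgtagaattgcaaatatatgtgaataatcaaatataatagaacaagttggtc

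The GAAATTT element was found before 3 of the 8 genes, all of the NHP pathway, and in 12.5% of the 27443 stretches of this length before protein-coding genes. FMO1 held 4 matches, at 189, 131, 130 and 108 bases before its start, of which the middle pair overlap because GAAATTTC reads the same on both strands. ALD1 held an overlapping pair at 90 and 89 bases, and UGT76B1 a single match at 27 bases. The W-box core was found before the other 5 genes (SARD4, AZI1, EARLI1, AZI3 and DIR1) and in 44.9% of all stretches, so its presence is common. SARD4 held 2 W-box cores, at 82 and 68 bases, and AZI1 held 2, at 232 and 224 bases. EARLI1, AZI3 and DIR1 held 1 each, at 237, 150 and 231 bases. A G-box, the element bound by the MYC factors of JA signaling, stood 35 bases before FMO1 and in 6.49% of all stretches. The TGACG element (18.6% of all stretches) and the CGCG box core (10.1%) matched before none of the 8. A match describes these letters only, and no binding was measured.

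FMO1 lies on chromosome 1 (6650476 to 6653195, minus strand, 5 exons) and ALD1 on chromosome 2 (5768417 to 5772266, plus strand, 10 exons). SARD4 lies on chromosome 5 (21399331 to 21400686, plus strand, 1 exon) and UGT76B1 on chromosome 3 (3556554 to 3558361, plus strand, 2 exons). AZI1 (7401087 to 7401951), EARLI1 (7406065 to 7406994) and AZI3 (7409621 to 7410406) follow each other on the minus strand of chromosome 4, each with 1 exon. Gaps of 4113 and 2626 bases separate them. DIR1 lies on chromosome 5 (19646028 to 19646840, minus strand, 1 exon). The coding sequences of AZI1, EARLI1 and AZI3 were between 86.5 and 88.4% identical to each other, and those of AZI1 and DIR1 56%. Of the 50-base words of AZI3, 6.78% also occurred elsewhere in the genome, in the next gene of the array, AT4G12500. The other 7 members held no such shared word, so whole 50-base stretches could be placed apart.

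Levels are given as CPM, counts per 1000000 counts of a library scaled by trimmed mean of M-values (TMM) factors. Differences are given as log2 fold changes ± SE, where the SE was calculated back from edgeR's test. It is the size of the log2 fold change divided by the square root of the F statistic. A gene was called where edgeR's adjusted p was under 0.01 and the log2 fold change was above 1 in size. Libraries are given in the order of replicates 1 and 2. In bulk tissue, fewer cells of a type and less RNA per cell cannot be told apart.

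Libraries held between 10164591 and 15003290 counts on genes, and organelle genes took between 0.0296 and 0.077% of them. Libraries of a genotype differed by far more than sampling noise (chi-square per degree of freedom between 14.8 and 42.8). AFP2, to which LNJ is related, stood at 8.19 and 11.0 CPM in Col-0, at 63.5 and 50 CPM in the LNJ-OX libraries, and at 8.81 and 9.14 in jazD. The study describes the overexpressed LNJ as an isoform of AFP2, so reads of the transgene can be counted at AFP2. These counts do not tell them from transcripts of the gene itself. In jazD, JAZ1 was at 3.78 and 2.83 CPM against 29.1 and 20.1 in Col-0, and JAZ6 at 5.24 and 4.05 against 94.0 and 68.7. Shoot genes for photosynthesis summed to between 33923 and 56304 CPM in every library and 9 root genes to between 3 and 13 counts. edgeR called 0 of the 5 shoot genes against Col-0, with 0 at an unadjusted p under 0.05, and RCA had the smallest p in both comparisons (log2 fold changes -0.53 and -0.49).

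SARD4, the reductase of pipecolic acid synthesis, was the only member called in jazD, where it was almost silent. SARD4 transcripts stood at 12.4 and 24.0 CPM in Col-0, 44.9 and 29.7 CPM in LNJ-OX, and 1.26 and 0.943 CPM in jazD. The raw counts were 197 and 256 for Col-0, 682 and 345 for LNJ-OX, and 12 and 10 in jazD, for which the 95% Poisson intervals, which cover counting error only, ran from 6.2 to 21.0 and from 4.8 to 18.4. All 3 genotypes were apart, with LNJ-OX highest and jazD lowest. SARD4 was 16.4-fold lower in jazD than in Col-0 (log2 fold change -4.04 ± 0.44 SE, edgeR adjusted p = 0.00108). It was 33.8-fold higher in LNJ-OX than in jazD (log2 fold change 5.08 ± 0.44, adjusted p = 0.000174). The higher mean of LNJ-OX over Col-0 did not pass the threshold (log2 fold change 1.04 ± 0.33, adjusted p = 0.114).

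The jazD call on SARD4 was lost when either jazD library was left out, with an unchanged direction. Its log2 fold change against Col-0 was -4.25 (adjusted p = 0.0106) without jazD replicate 1 and -3.83 (adjusted p = 0.016) without jazD replicate 2, and limma-voom gave -3.90 (adjusted p = 0.0158). Over 14 other scalings, filters, tools and sets of libraries, the adjusted p ran from 1.7e-24 to 0.016, and the log2 fold change from -4.42 to -3.49. Against LNJ-OX, the SARD4 call held in all 14, with log2 fold changes from 4.75 to 5.34.

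**Figure D1:**
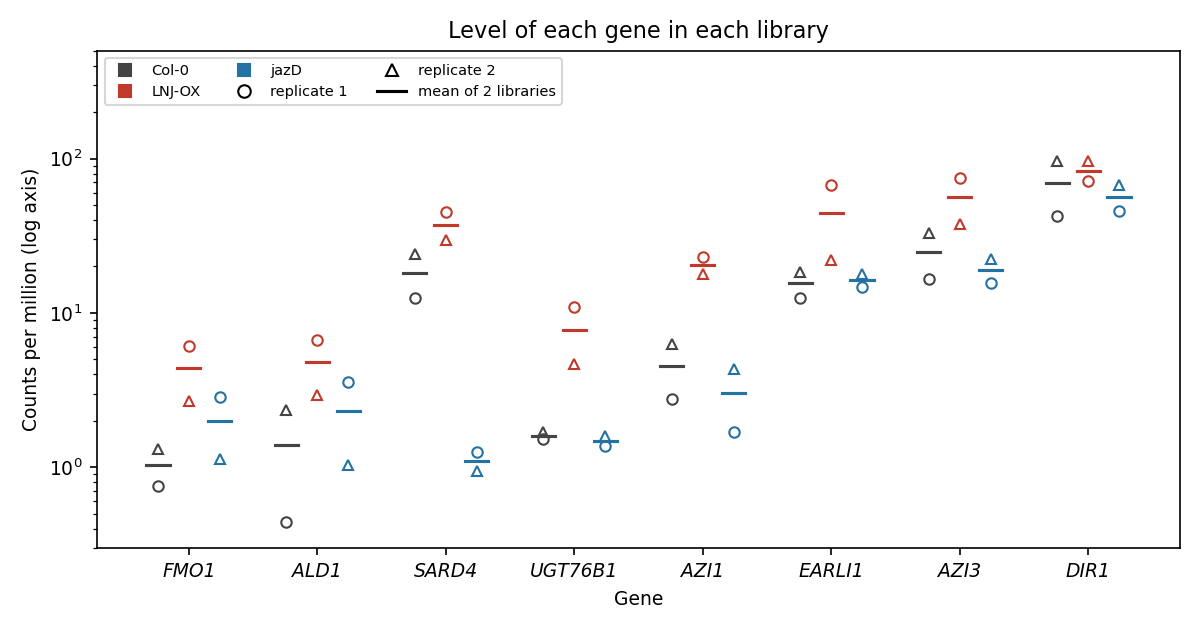
Level of the 8 genes in each library, in CPM on a log axis, with circles for replicate 1, triangles for replicate 2 and a bar at the mean of the 2 libraries of a genotype. SARD4 stands at 1.26 and 0.943 CPM in jazD, below both other genotypes, and both LNJ-OX libraries lie above both Col-0 libraries for every gene but DIR1.

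None of the genes nearest to SARD4 was called. The upstream neighbour AT5G52800 overlaps the first 89 bases of SARD4 on the same strand and was low throughout, at 0.882 and 0.470 CPM in Col-0 and 0.210 and 0.377 CPM in jazD (log2 fold change -1.20, adjusted p = 0.613). The next tested gene downstream, AT5G52820, was at 22.1 and 34.7 CPM in Col-0 and 34.3 and 33.1 CPM in jazD (log2 fold change 0.25). Further out, WRKY27 (log2 fold change -0.82, adjusted p = 0.416) and AT5G52780 (-0.37, adjusted p = 0.556) were lower in both jazD libraries than in both Col-0 libraries. Within 0.1 Mb of SARD4, 43 genes besides it were tested and 0 were called lower in jazD, against 0.674% of all tested genes. With so few genes, a count of 0 does not set this stretch apart from that share. Within 0.1 Mb of DIR1, on the same chromosome, 3 of 46 (6.52%) were called lower.

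Over a wider stretch, calls of lower levels in jazD were more frequent around SARD4 and on its chromosome, a pattern noticed after the values were seen and therefore described without a test. Chromosome 5 held 54 of the 144 genes called lower in jazD, 1.1% of its 4899 tested genes, against between 0.463 and 0.589% on the other chromosomes. It held 25 genes called higher, against 26 of 5699 on chromosome 1. Within 2 Mb of SARD4, 18 of 786 other tested genes (2.29%) were called lower and 6 higher. Within 2 Mb of DIR1, a stretch that overlaps the former, 28 of 776 (3.61%) were called lower and 9 higher, although DIR1 itself was not called. Around the other 6 members between 0.291 and 0.606% were called lower at this distance. In LNJ-OX, 4 genes were called lower and 10 higher within 2 Mb of SARD4.

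**Figure D2:**
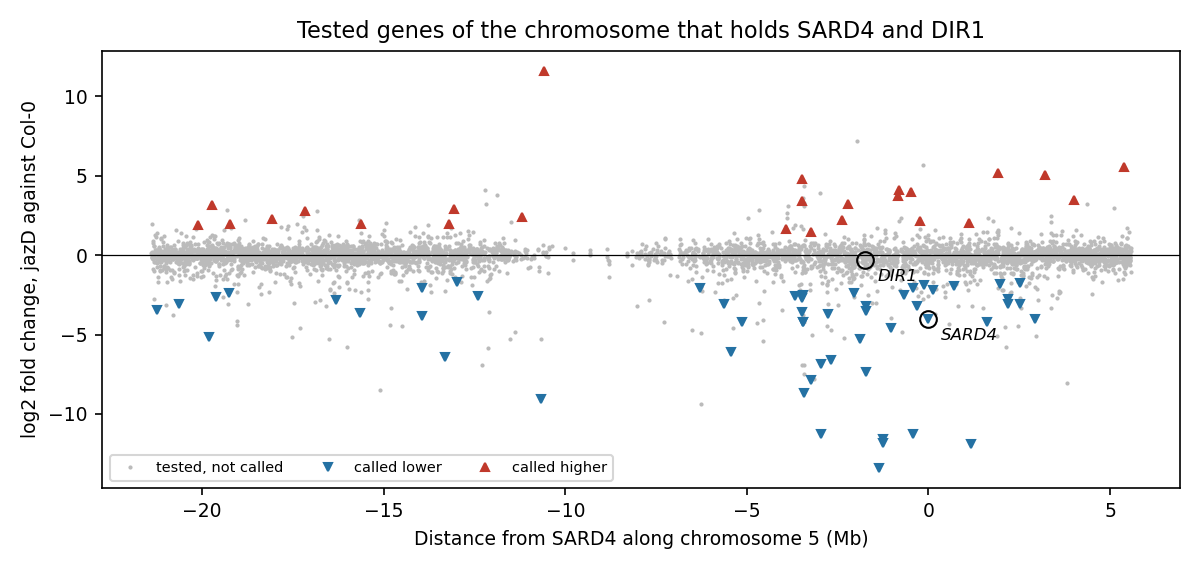
The log2 fold change of jazD against Col-0 for the tested genes of chromosome 5, by distance from SARD4 in Mb, with blue and red triangles for genes called lower and higher. Of the 144 genes called lower, 54 lie on this chromosome. SARD4 is at -4.04 and DIR1, circled to its left, at -0.30.

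FMO1 and ALD1, the monooxygenase and the aminotransferase of the pathway, were at low levels, and their libraries of 1 genotype differed widely. FMO1 was at 0.76 and 1.31 CPM in Col-0, 6.12 and 2.67 CPM in LNJ-OX, and 2.83 and 1.13 CPM in jazD. These values rest on 12 and 14, 93 and 31, and 27 and 12 counts. Both LNJ-OX libraries lay above both Col-0 libraries, while a jazD library fell inside each of the other ranges. Against Col-0, FMO1 gave a log2 fold change of 2.12 ± 0.62 in LNJ-OX, with an adjusted p of 0.0851 that missed the threshold, and of 0.95 ± 0.65 in jazD (adjusted p = 0.604). Without LNJ-OX replicate 1 the former was 1.39 (adjusted p = 0.527), and without single libraries the latter ran from 0.16 to 1.48.

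ALD1 was at 0.44 and 2.35 CPM in Col-0, 6.71 and 2.93 CPM in LNJ-OX, and 3.57 and 1.04 CPM in jazD. Its counts were 7 and 25, 102 and 34, and 34 and 11. The Col-0 libraries differed 5.32-fold, the widest gap within a genotype among the 8 genes. ALD1 gave log2 fold changes of 1.86 ± 0.77 in LNJ-OX (adjusted p = 0.224) and of 0.78 ± 0.80 in jazD (adjusted p = 0.783). Leaving out single Col-0 libraries moved the LNJ-OX value from 1.06 to 3.43.

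UGT76B1, which glucosylates NHP and SA, was higher in both LNJ-OX libraries than in any other library. It was at 1.51 and 1.69 CPM in Col-0, 10.9 and 4.65 CPM in LNJ-OX, and 1.36 and 1.60 CPM in jazD. LNJ-OX exceeded Col-0 by a log2 fold change of 2.29 ± 0.49, 4.88-fold, with an adjusted p of 0.0232 that missed the call. Against jazD the log2 fold change was 2.39 ± 0.50 (adjusted p = 0.035), and jazD against Col-0 gave -0.10 ± 0.53 (adjusted p = 0.973). Without LNJ-OX replicate 2 the LNJ-OX value against Col-0 was 2.77 (adjusted p = 0.00432) and without replicate 1 it was 1.54 (adjusted p = 0.318). Over all alternatives its adjusted p ran from 4.03e-05 to 0.318.

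AZI1, the lipid-transfer protein named for its induction by azelaic acid, followed a similar order. It was at 2.77 and 6.29 CPM in Col-0, 23.0 and 17.9 CPM in LNJ-OX, and 1.68 and 4.34 CPM in jazD. Both LNJ-OX libraries stood far above the other 4 libraries, and Col-0 and jazD overlapped. The log2 fold change of AZI1 was 2.20 ± 0.46 in LNJ-OX against Col-0, 4.59-fold (adjusted p = 0.0209), and 2.75 ± 0.48 against jazD, 6.73-fold (adjusted p = 0.0135), both short of the threshold. The value in jazD against Col-0 was -0.55 ± 0.49 (adjusted p = 0.728). Over the alternatives the adjusted p of AZI1 in LNJ-OX against Col-0 ran from 2.05e-08 to 0.0782, and without single Col-0 libraries the log2 fold change was 1.72 (without replicate 1) and 2.88 (without replicate 2). Against jazD it was 3.60 without jazD replicate 2 and 2.24 without jazD replicate 1.

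EARLI1, which is next to AZI1, was at 12.5 and 18.5 CPM in Col-0, 67.2 and 22.1 CPM in LNJ-OX, and 14.7 and 17.9 CPM in jazD. LNJ-OX replicate 1 was 3.04-fold above replicate 2, which stood little above the Col-0 libraries. The log2 fold change against Col-0 was 1.53 ± 0.43 (adjusted p = 0.0736), 0.53 (adjusted p = 0.623) without LNJ-OX replicate 1 and 2.12 (adjusted p = 0.00139) without LNJ-OX replicate 2. In jazD against Col-0 it was 0.08 ± 0.43 (adjusted p = 0.977). EARLI1 shares 32 bases with AT4G12485 on the opposite strand.

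AZI3 was at 16.6 and 33.1 CPM in Col-0, 75.2 and 37.6 CPM in LNJ-OX, and 15.5 and 22.2 CPM in jazD. The LNJ-OX libraries lay above all others, though LNJ-OX replicate 2 was close to Col-0 replicate 2. The log2 fold change was 1.19 ± 0.39 in LNJ-OX against Col-0 (adjusted p = 0.12), 1.58 ± 0.39 against jazD (adjusted p = 0.0714) and -0.39 ± 0.39 in jazD against Col-0 (adjusted p = 0.776). AT4G12495, annotated on the opposite strand, shares 282 bases with AZI3, 35.9% of its length. AT4G12495 was at 8.13 and 13.9 CPM in Col-0, 49.8 and 24.9 CPM in LNJ-OX, and 11.3 and 8.77 CPM in jazD, the same order of libraries within Col-0 and LNJ-OX as AZI3. The strand setting of the counting is not given, so how reads of this stretch were divided between both genes cannot be told, and the level of AZI3 is uncertain.

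DIR1, a lipid-transfer protein required for the long-distance signal, had the highest mean level in each genotype, with libraries that overlapped those of AZI3 in LNJ-OX, and the smallest fold change of LNJ-OX from Col-0 among the 8. It was at 42.3 and 97.0 CPM in Col-0, 71.2 and 96.0 CPM in LNJ-OX, and 45.5 and 67.3 CPM in jazD, where Col-0 overlapped both other genotypes and LNJ-OX lay above jazD. DIR1 had log2 fold changes of 0.27 ± 0.37 in LNJ-OX (adjusted p = 0.755) and -0.30 ± 0.37 in jazD (adjusted p = 0.832). The whole of DIR1 lies within AT5G48480 on the opposite strand, which ran at 60.3 and 149 CPM in Col-0, 106 and 132 CPM in LNJ-OX, and 67.5 and 89.6 CPM in jazD. The level of DIR1 is therefore uncertain in the same way.

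**Figure D3:**
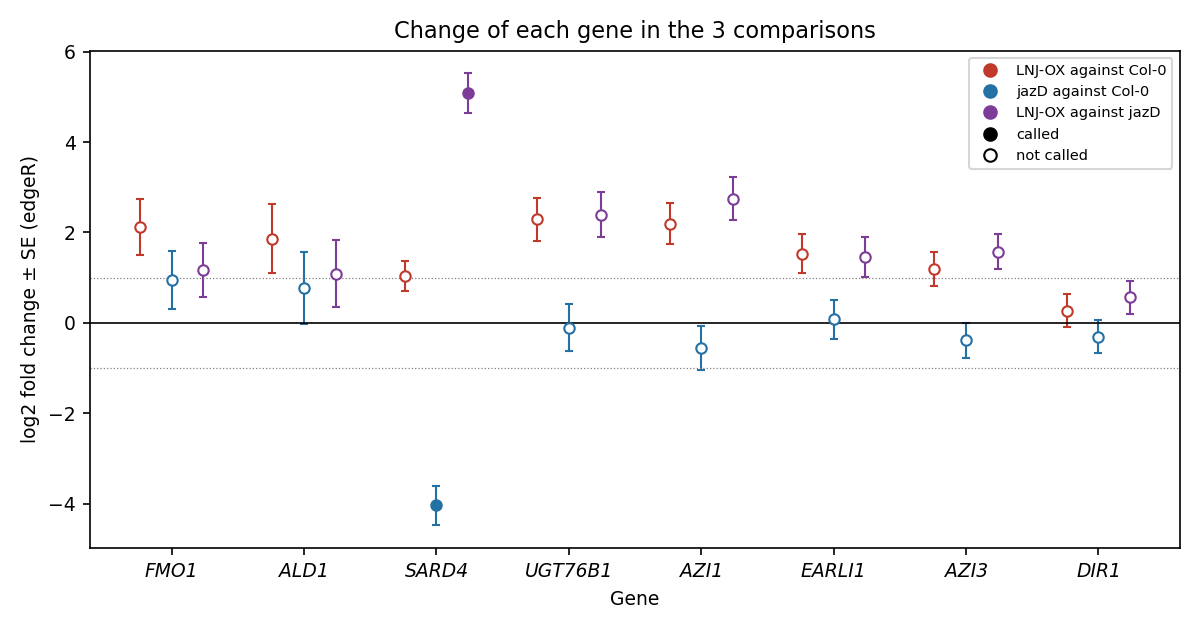
The log2 fold change of each of the 8 genes in the 3 comparisons, filled where the gene was called and open where it was not. Bars are 1 SE, calculated back from edgeR's F statistic. Dotted lines mark a log2 fold change of 1 in either direction. SARD4 is the only filled gene, at -4.04 in jazD against Col-0 and 5.08 in LNJ-OX against jazD.

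Counted over the 8 genes, edgeR called 0 higher and 0 lower in LNJ-OX against Col-0, where 0.837% of the 21374 tested genes were called higher and 0.585% lower. DESeq2 called 3 of the 8 higher (UGT76B1, AZI1 and EARLI1), against 2.18% of tested genes, and limma-voom 0, against 0.706%. At an unadjusted p under 0.05, 7 of the 8 were higher, against 8.97% of tested genes. At an adjusted p under 0.05 with no minimum fold change, 2 of the 8 (UGT76B1 and AZI1) were higher, against 2.56% of all tested genes. Both LNJ-OX libraries exceeded both Col-0 libraries for 7 of the 8, against 24% of all tested genes. The median log2 fold change was 1.70 over the 8 and -0.01 over all tested genes. The 8 were chosen with earlier results of these data known, and AZI1, EARLI1 and AZI3 are neighbouring genes of similar sequence. These counts therefore describe the 8 and do not test them as a set.

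In jazD against Col-0, 1 of the 8 (SARD4) was called lower and 0 higher, where 0.674% of tested genes were called lower and 0.44% higher. SARD4 was also the only member at an unadjusted p under 0.05, where 8.59% of tested genes were lower. Both jazD libraries were below both Col-0 libraries for 1 of the 8, against 21.1% of tested genes, and above for 0 of the 8, against 19.5%. The median log2 fold change over the 8 was -0.20 and that over all tested genes 0.01. In LNJ-OX against jazD, 1 of the 8 (SARD4) was called higher and 0 lower, with 0.449% of tested genes called higher and 0.332% lower. At an adjusted p under 0.05 with no minimum fold change, 3 of the 8 (SARD4, UGT76B1 and AZI1) were higher, against 1.31% of tested genes. Both LNJ-OX libraries exceeded both jazD libraries for 6 of the 8, all but FMO1 and ALD1, against 25.5% of tested genes. The comparisons share libraries, so their counts are not independent of each other.

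Replicates of the 8 genes leaned one way within a genotype. In Col-0, replicate 2 was the higher library for 8 of the 8, from 1.12-fold for UGT76B1 to 5.32-fold for ALD1, against 50.1% of all tested genes. In LNJ-OX, replicate 1 was the higher library for 7 of the 8, all but DIR1, against 53.0% of all tested genes. In jazD, replicate 1 was higher for 3 (FMO1, ALD1 and SARD4) and replicate 2 for 5. Summed over the 8 genes, the level ran at 89.4 and 184 CPM in Col-0, 305 and 214 CPM in LNJ-OX, and 86.4 and 117 CPM in jazD.

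Per kilobase of exon, the level in Col-0 fell in the order DIR1 (a mean of 85.7 CPM per kilobase), AZI3 (31.6), EARLI1 (16.7), SARD4 (13.4), AZI1 (5.24), UGT76B1 (0.926), ALD1 (0.888) and FMO1 (0.541). Libraries of EARLI1 and SARD4 overlapped, as did those of UGT76B1, ALD1 and FMO1 from neighbour to neighbour. In jazD, SARD4 was the last of the 8 at 0.812 CPM per kilobase, where its libraries overlapped those of UGT76B1 (0.857). In LNJ-OX, AZI1 (23.6) came after SARD4 (27.5), and every pair of neighbours overlapped except AZI1 and UGT76B1 (4.50).

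Across the 6 libraries, log2 CPM of FMO1 and ALD1 gave a Pearson r of 0.94, and AZI1 and AZI3 also gave 0.94. UGT76B1 gave 0.91 with AZI1 and 0.93 with EARLI1. SARD4 gave 0.33 with FMO1 and 0.32 with ALD1, 0.68 with UGT76B1, 0.73 with AZI3 and 0.76 with AZI1. The libraries are 3 genotypes of 2, so these values describe the order of 6 points that share genotype and depth. Among the 14440 other genes of at least 10 CPM in a genotype, the closest to FMO1 were AMI1 (r = 0.988), AT3G47800 (0.985) and AT5G01010 (0.985). Closest to ALD1 were AT1G72090 (0.991), AT4G39690 (0.988) and AT1G78620 (0.988). Closest to AZI1 were HSFB4 (0.995), AT1G14890 (0.986) and AT5G44572 (0.985). With so many candidates, values this high are the top of a long list.

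Of the 9 listed regulators of the NHP genes, edgeR called 2 higher and 0 lower in LNJ-OX, against 0.837 and 0.585% of tested genes. The list was not divided by whether a factor raises or lowers the NHP genes, so its counts and median have no direction of effect. SARD1 was at 23.9 and 23.2 CPM in Col-0, 97.3 and 88.0 CPM in LNJ-OX, and 24.5 and 19.7 CPM in jazD, a log2 fold change of 1.98 ± 0.23 in LNJ-OX (adjusted p = 0.00193). CBP60g, which acts beside it, was at 26.7 and 12.8 CPM in Col-0, 162 and 141 CPM in LNJ-OX, and 35.9 and 32.8 CPM in jazD, a log2 fold change of 2.93 ± 0.34 in LNJ-OX (adjusted p = 0.00193). Replicates of both factors were close in LNJ-OX, unlike those of FMO1, ALD1 and UGT76B1. Both were also called higher in LNJ-OX than in jazD, with log2 fold changes of 2.07 and 2.14. The median log2 fold change over the list was 0.45 for LNJ-OX and 0.13 for jazD. In LNJ-OX, 4 of the 9 had an unadjusted p under 0.05, where 8.97% of tested genes were higher. Besides SARD1 and CBP60g these were WRKY33 (log2 fold change 1.35, adjusted p = 0.018) and CAMTA3 (0.90, adjusted p = 0.0536). In jazD edgeR called 0 and 2 had an unadjusted p under 0.05. The lower p was that of WRKY33 (log2 fold change 0.93, adjusted p = 0.0937) and the other that of CBP60g (0.79, adjusted p = 0.266).

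Of 12 genes of SA synthesis, perception and response, edgeR called 6 higher and 0 lower in LNJ-OX, against 0.837 and 0.585% of tested genes. ICS1, the isochorismate synthase of SA synthesis, was at 19.2 and 24.3 CPM in Col-0, 137 and 132 CPM in LNJ-OX, and 30.6 and 25.1 CPM in jazD, a log2 fold change of 2.63 ± 0.25 (adjusted p = 0.00109). Called with it were the transporter EDS5 (log2 fold change 1.57, adjusted p = 0.00542) and PBS3 (1.79, adjusted p = 0.0051), which conjugates isochorismate. The immune regulators EDS1 (1.66, adjusted p = 0.00665) and PAD4 (1.33, adjusted p = 0.00878), and the glucanase PR2 (2.26, adjusted p = 0.00741), were also called. PR1, the usual marker of SA responses, was at 69.7 and 172 CPM in Col-0 and 1105 and 367 CPM in LNJ-OX, and its log2 fold change of 2.61 had an adjusted p of 0.0243. In LNJ-OX against jazD, ICS1, PBS3, EDS1 and PAD4 were called higher. The median of the list was 1.61 in LNJ-OX and 0.28 in jazD, where edgeR called 0 and 2 had an unadjusted p under 0.05. The smallest p in jazD was that of the SA receptor NPR3 (log2 fold change 0.79, adjusted p = 0.0766, against 0.85 and 0.0497 in LNJ-OX). The other was PBS3, which was lower in jazD than in Col-0 (log2 fold change -0.73, adjusted p = 0.177).

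**Figure D4:**
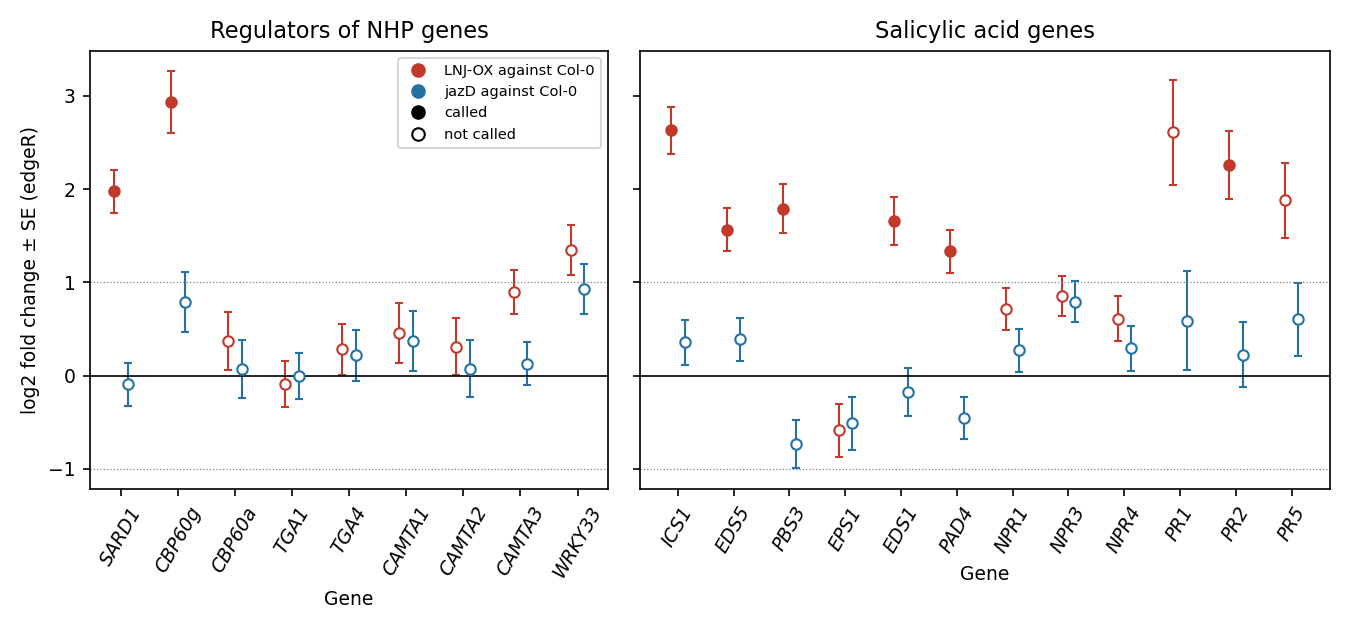
The log2 fold change against Col-0 of 9 regulators of NHP genes on the left and 12 genes of SA on the right, in LNJ-OX and jazD. Bars are 1 SE, calculated back from edgeR's F statistic. Filled points were called. The 8 filled points, SARD1 and CBP60g on the left and 6 genes on the right, are all of LNJ-OX.

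Among 16 other genes tied to mobile signals, 1 was called higher in LNJ-OX and 1 in jazD, against 0.837 and 0.44% of tested genes. In LNJ-OX this was AED1 (AT5G10760), an aspartyl protease that restrains systemic immunity, at 82.5 and 102 CPM in Col-0, 375 and 306 CPM in LNJ-OX, and 97.8 and 61.2 CPM in jazD (log2 fold change 1.88 ± 0.31, adjusted p = 0.00783). It was also called higher in LNJ-OX than in jazD, with a log2 fold change of 2.1. In jazD the called gene was BSMT1, the methyltransferase that makes methyl salicylate, a further mobile signal. BSMT1 was at 7.43 and 5.82 CPM in Col-0, 10.9 and 10.07 CPM in LNJ-OX, and 131 and 157 CPM in jazD (log2 fold change 4.43 ± 0.27, adjusted p = 1.94e-05). In LNJ-OX against jazD it was called lower, with a log2 fold change of -3.78. MES9, an esterase that turns methyl salicylate back into SA, was at 6.74 and 8.17 CPM in Col-0 and 21.0 and 22.7 CPM in jazD, and missed the call (log2 fold change 1.55, adjusted p = 0.0149).

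Of 13 genes that supply or consume lysine, the substrate of ALD1, edgeR called 0 in each comparison. At an unadjusted p under 0.05 there was 1 in LNJ-OX and 2 in jazD against Col-0, and 3 between both. Of all tested genes, 8.97% were higher in LNJ-OX and 8.59% lower in jazD at this p, each share covering 1 direction only. LHT1, an amino acid transporter, was at 19.5 and 16.3 CPM in Col-0 and 61.8 and 49.1 CPM in LNJ-OX (log2 fold change 1.63, adjusted p = 0.0114). LKR/SDH, the bifunctional enzyme that degrades lysine, was at 53.1 and 28.6 CPM in Col-0 and 87.1 and 150 CPM in jazD (log2 fold change 1.53, adjusted p = 0.0317). AK3 was lower in jazD than in Col-0 (log2 fold change -1.18, adjusted p = 0.048). Of 6 further genes of the AZI1 array, only AT4G12500 passed the filter, at 4.66 and 6.95 CPM in Col-0 and 17.5 and 4.65 CPM in LNJ-OX (log2 fold change 0.95, adjusted p = 0.398). The other 5 held few or no counts. Over the 56 genes of these lists, edgeR called 9 in LNJ-OX and 1 in jazD against Col-0, DESeq2 13 and 4, and limma-voom 8 and 1. Over all tested genes, edgeR called 0.837% higher and 0.585% lower in LNJ-OX, and 0.44% higher and 0.674% lower in jazD.

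Markers of handling, flowers and senescence were followed in the same libraries. Of 10 genes that respond fast to touch and handling, 9 were tested and 3 were called higher in LNJ-OX. These were TCH3 (log2 fold change 2.08), TCH4 (3.10) and WRKY40 (1.84), where 0.837% of all tested genes were called higher. In jazD edgeR called 0, with 4 at an unadjusted p under 0.05, and TCH4 had the smallest p (log2 fold change 1.59, adjusted p = 0.0106). The list summed to 148 and 165 CPM in Col-0, 616 and 547 CPM in LNJ-OX, and 272 and 249 CPM in jazD. Of 9 floral and pollen genes, 1 was called lower in LNJ-OX and 1 in jazD, in both cases the pollen gene AGP11 (log2 fold changes -5.0 and -5.08, at 0 and 1.03 CPM in LNJ-OX against 17.1 and 13.5 CPM in Col-0). Of all tested genes, 0.585% were called lower in LNJ-OX and 0.674% in jazD. In jazD all 9 were lower, 8 at an unadjusted and 6 at an adjusted p under 0.05. In LNJ-OX 7 were lower, 2 of them at an adjusted p under 0.05, and 3 of the 9 had an unadjusted p under 0.05. AMS (log2 fold change 1.07, adjusted p = 0.368) and A9 (1.25, adjusted p = 0.339) lay above Col-0. The floral list summed to 171 and 146 CPM in Col-0, 42.9 and 119 CPM in LNJ-OX, and 25.6 and 36.0 CPM in jazD. Of 6 senescence genes edgeR called 0 in LNJ-OX and 0 in jazD against Col-0, with 3 in each at an unadjusted p under 0.05. SAG13 had the smallest p in jazD (log2 fold change 1.60, adjusted p = 0.0231) and WRKY53 in LNJ-OX (1.15, adjusted p = 0.029). SAG12 had log2 fold changes of -1.53 in LNJ-OX (adjusted p = 0.15) and -1.89 in jazD (adjusted p = 0.0909), and SAG29 of -1.86 (adjusted p = 0.299) and 2.44 (adjusted p = 0.137). The value of SAG29 in jazD rests on replicate 2, with 4.93 and 65.4 CPM in jazD against 6.55 and 6.39 CPM in Col-0. The senescence list summed to 525 and 385 CPM in Col-0, 616 and 477 CPM in LNJ-OX, and 656 and 715 CPM in jazD. At an unadjusted p under 0.05, 8.97% of all tested genes were higher in LNJ-OX and 8.59% lower in jazD, each share covering 1 direction only. The part of these groups in the levels of the 8 genes was not tested.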

How the data were processed

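Processed files of 6 RNA-seq libraries (Col-0, LNJ-OX and jazD, 2 each) were used. The authors deposited raw read counts per gene. Per the submitters' processing notes, Trim Galore 0.6.3, HISAT2 2.1.0, HTSeq 0.9.1, limma 3.38.3 and the build TAIR10 were used. The annotation release and the strand setting are not given in the sources used here. Age and tissue are those of the labels, while the methods speak of leaves and of a slightly different age. 2 further tables hold the authors' comparisons (fold change, mean log2 expression, t, p-value, adjusted p and B) and were not used.

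All 6 libraries entered a single fit by the quasi-likelihood test of edgeR 4.0.16 under R 4.3.3, with filterByExpr and TMM factors. P-values were adjusted by the Benjamini-Hochberg method over the 21374 genes tested, and the biological coefficient of variation was 0.232. The procedure was also run on simulated data, with changes placed only in genes of higher level than FMO1, ALD1 and UGT76B1. That run therefore says nothing about calls on these low-count members. Calls used the thresholds the study states, an adjusted p under 0.01 and a log2 fold change above 1 in size. Alternatives were other scalings and filters, DESeq2 1.42.0, limma-voom (limma 3.58.1), 4 libraries alone, a replicate block, each library left out, other thresholds and glmTreat. Correlations used log2 CPM with a prior count of 2. Gene models, lengths and sequences were read from RefSeq TAIR10.1, whose nuclear chromosomes have the coordinates of TAIR10.

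The members and gene lists were chosen with earlier results of these data known. Named genes are the 8 members, listed genes called in any comparison, the listed gene of smallest p per list and comparison with Col-0, and the 3 genes closest to FMO1, ALD1 and AZI1. PR1, MES9, CAMTA3, AFP2, JAZ1, JAZ6, SAG12, SAG29, AMS, A9 and the neighbours of members are exceptions, picked with their values in view.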

Additional observations from a re-analysis of the deposited data

How the results depend on the processing

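Over the 8 genes and 3 comparisons, 296 of 336 fold changes under alternative settings kept their direction and side of the threshold, 28 passed it newly, 3 fell short of it and 9 reversed. The reversals came only from leaving out a library, in genes not called. Without single libraries, DIR1 ran from -0.20 to 0.98 in LNJ-OX against Col-0. In jazD against Col-0, ALD1 ran from -0.36 to 2.35, EARLI1 from -0.16 to 0.38, AZI1 from -1.39 to 0.13, AZI3 from -0.79 to 0.19, DIR1 from -0.76 to 0.42 and UGT76B1 from -0.22 to 0.0077. Members called in LNJ-OX against Col-0 were 0, but 7 with no filter on low counts, 3 with DESeq2, 2 at an adjusted p under 0.05 with no minimum fold change (hereafter the looser rule) and 0 to 2 with a library left out. In jazD they were 1, but 0 with limma-voom and 0 to 1 with a library left out. In LNJ-OX against jazD they were 1, but 5 with no filter, 4 with DESeq2, 2 with only the libraries compared, 3 by the looser rule and 1 to 4 with a library left out. Listed genes called were 9, 1 and 8 in these comparisons. They were 14, 4 and 15 with no filter, 4 in jazD and 14 in LNJ-OX against jazD with DESeq2, 4 in LNJ-OX and 2 in jazD with only the libraries compared, 14 in LNJ-OX and 4 in jazD by the looser rule, 1 in LNJ-OX and 3 in LNJ-OX against jazD with glmTreat, and 1 to 10, 1 to 2 and 1 to 11 with a library left out. Counts over all genes, 304, 238 and 167, were 1398, 1310 and 939 with no filter, 822, 718 and 502 with DESeq2, 1037, 882 and 441 by the looser rule, and 26, 66 and 68 with glmTreat. With only the libraries compared they were 170 in LNJ-OX and 578 in jazD, and limma-voom gave 143 in jazD. They ran from 11 to 478, 32 to 592 and 52 to 236 with a library left out, the lowest without Col-0 replicate 1 for LNJ-OX and jazD and without jazD replicate 2 between both. With library totals, 171 were called higher and 60 lower in LNJ-OX (179 and 125 by TMM), and 71 and 72 in jazD (94 and 144 by TMM). The causes were not tested.

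Labels give each genotype a replicate 1 and 2, but deviations of same-numbered libraries correlated by 0.089, 0.059 and -0.003, so that the numbers were not taken to pair them. A replicate block gave 2 members called in LNJ-OX against Col-0 (UGT76B1 and AZI1), 1 in jazD and 2 in LNJ-OX against jazD (SARD4 and AZI1), 2 listed genes in jazD, and 670, 654 and 355 genes in all. FMO1 and ALD1 rest on 7 to 102 counts a library. Neither was called in LNJ-OX against Col-0, but both were with no filter on low counts (adjusted p = 0.0024 and 0.00565).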
